A study of Mus musculus with 22 samples.

Results

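The genes described here are the Hox genes of the mouse, measured in forelimbs of strain 129 embryos at embryonic day 13.5 that were wild type or carried a Chsy-1 knockout. Members were the non-control probes whose gene name on the array is Hox, a cluster letter from a to d and a paralog number from 1 to 13 with nothing after it. The rule found 50 of the 41174 probes, and these stand for 38 of the 39 Hox genes: 11 of the HoxA, 10 of the HoxB, 8 of the HoxC and 9 of the HoxD cluster. Hoxc11 had no probe under this rule.

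Hox genes encode homeodomain transcription factors that give cells their position along the body axis. They lie in 4 clusters, and genes at the same place in different clusters share a paralog number, from 1 at the 3' end to 13 at the 5' end. Genes at the 3' end are switched on earlier and nearer the head, and genes at the 5' end later and nearer the tail. In the limb the HoxA and HoxD clusters are used a further time: genes of groups 9 and 10 pattern the upper arm, group 11 the forearm and groups 12 and 13 the hand, as known from mutants.

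The series holds 22 two-colour arrays, 9 of wild-type and 13 of Chsy-1 knockout forelimbs. Chsy-1 (Chsy1) encodes chondroitin sulfate synthase 1, which extends the sugar chains of proteoglycans, and the design compares these genotypes. On every array the forelimb RNA carried Cy5 and a universal mouse reference RNA, a commercial pool, carried Cy3. Each value is therefore a log2 ratio of forelimb to reference, where 0 is equal signal and 1 is 2-fold more in the forelimb. No dye swaps were made, so a bias of one dye for a gene cannot be told apart from a ratio. A ratio says how a gene compares with its own level in the reference, and a higher ratio of one gene than of another does not say that it had more RNA. The labels do not say whether a sample is 1 embryo or a pool, nor what the knockout allele is, so p-values measure the spread between these samples. In whole forelimbs, fewer cells with a gene on and less RNA per cell cannot be told apart.

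Forelimb signal was well above background in 27214 to 30599 of the 43379 non-control spots of an array. The log2 ratio of Chsy1 averaged 1.73 ± 0.28 (SD, n = 9) over wild-type arrays, against -4.38 ± 1.39 (SD, n = 13) over knockout arrays. Knockout 1 stood at 0.15 and the other 12 knockouts between -5.12 and -4.05, so the library labelled knockout 1 stands apart in the targeted gene. Without it the difference between genotypes was 0.27 in Hoxd13, against 0.25 with it, but the split of 32 tested Hox genes went from 15 higher and 17 lower in the knockout to 11 and 21. The genes that changed sign were Hoxc10, from 0.05 to -0.02, and Hoxa10, Hoxb2 and Hoxc9, which lay within 0.01 of 0 with it. The forelimb marker Tbx5 had a wild-type log2 ratio of 2.20 ± 0.56 (SD, n = 9), but Pitx1, a defining hindlimb gene, stood at 5.64 ± 0.27 (SD, n = 9) and was well above background on all 22 arrays. The other hindlimb markers Tbx4 and Isl1 stood at 0.61 and 1.71. Wild type 1 and knockout 12 stand apart in the 5' HoxA and HoxD genes, and some results that rest on them are also given without them.

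The pattern against the reference was uneven along the clusters. HoxA and HoxD genes of groups 9 to 13 stood high, HoxA genes of groups 1 to 8 stood near the reference, and most HoxB genes stood below it. Of 34 Hox genes bright enough to test in either channel, 8 were at least 2-fold above the reference in wild type and 4 at least 2-fold below (limma, adjusted p under 0.05 and a mean log2 ratio past 1). That is 23.5% above and 11.8% below, while of all 19467 genes tested 11.6% were above and 10.6% below. All 8 genes above were HoxA or HoxD genes of groups 9 to 13, whereas the share below is near that of all genes.

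**Figure D1:**
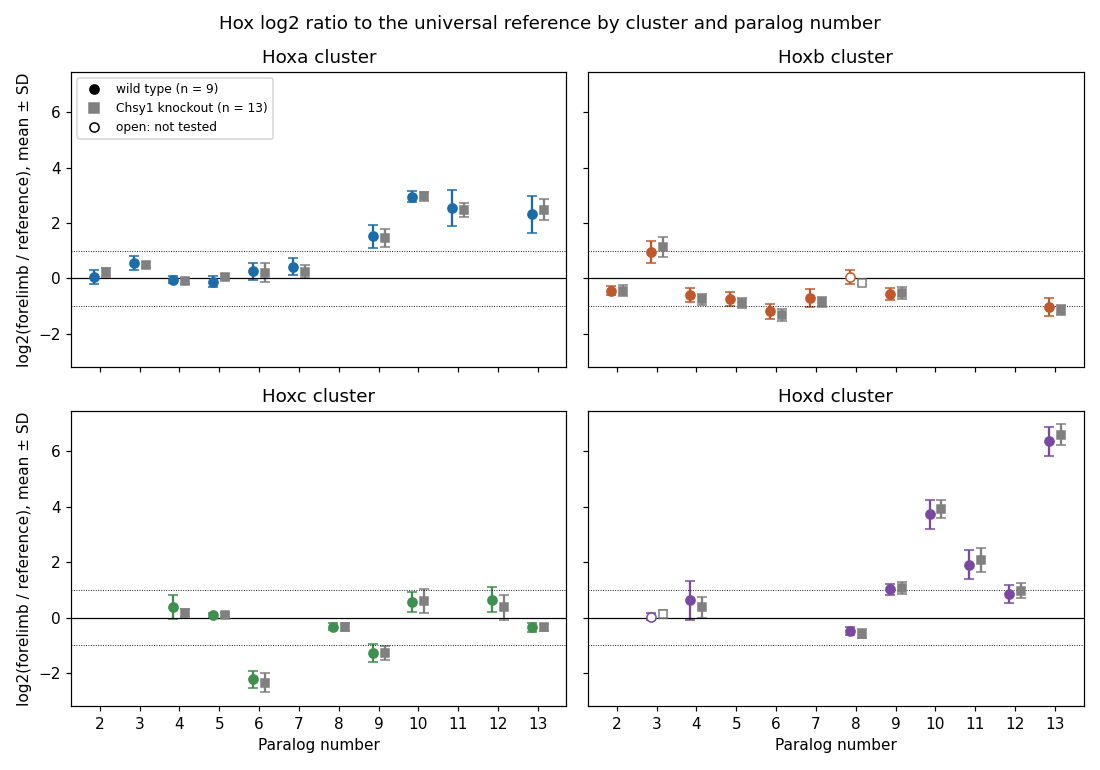
Mean log2 ratio of forelimb to reference (vertical axis, bars are SD over arrays) by paralog number from 2 to 13 (horizontal axis) in each cluster, circles for 9 wild-type and grey squares for 13 knockout arrays; open symbols are genes too dim to test, and dotted lines mark 2-fold. HoxA rises from a wild-type mean of 0.42 at Hoxa7 to 2.95 at Hoxa10, HoxD reaches 6.36 at Hoxd13, and the wild-type means of HoxB and HoxC stay below 1.

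Hoxd13, a regulator of finger number and form, had the highest ratio. Its lowest, median and highest wild-type log2 ratios were 4.96, 6.44 and 6.72, and those of the knockout were 5.64, 6.60 and 7.08. The lowest value of each group lay well apart, in wild type 1 and in knockout 12, and the ranges overlapped. The mean in wild type was 6.36 ± 0.54 (SD, n = 9; limma adjusted p = 1.1e-22). Without wild type 1 it was 6.53 ± 0.12 (SD over the remaining arrays). The reference signal of this probe (chromosome 2, 74472030 to 74472089, mm8) was not well above background on any wild-type array, so the forelimb was at least 81.9-fold above the reference, a bound set by the dimmest reliable signals of the Cy3 channel or the spot itself. The other Hoxd13 probe, whose reference signal was well above background on 19 of 22 arrays, had a wild-type log2 ratio of 3.74 ± 0.76 (SD, n = 9). Both probes stood high, but the size of the ratio depended on the probe, and the bound holds for the brighter one alone.

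Hoxd10, which acts in the upper arm and forearm, came next. Its lowest, median and highest wild-type log2 ratios were 2.41, 3.83 and 4.18, against 2.96, 3.92 and 4.32 in the knockout. Again wild type 1 and knockout 12 were the lowest arrays, and the other arrays of both groups overlapped. Its reference signal was well above background on 13 of 22 arrays. Hoxd11, which patterns the forearm, ran from 0.67 through a median of 2.05 to 2.49 in wild type and from 0.78 through 2.16 to 2.47 in the knockout. No array had a reference signal of Hoxd11 well above background, so its ratio is a lower bound, at least 3.70-fold. Hoxd9 ran from 0.57 through 1.05 to 1.34 in wild type and from 0.63 through 1.03 to 1.47 in the knockout. With a mean of 1.02 ± 0.21 (SD, n = 9) Hoxd9 lay just past the 2-fold line. Its other probe, at 0.81 ± 0.34 (SD, n = 9), did not reach that line. Hoxd12 fell short of it with the main correction, at 0.85 ± 0.32 (SD, n = 9), while the scanner ratio put it at 3.00. Its reference signal was well above background on 4 arrays, 2 of them wild type.

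In HoxA the same groups were high. Hoxa10, a partner of Hoxd10 in the limb, ran from 2.58 through a median of 3.00 to 3.21 in wild type and from 2.69 through 2.93 to 3.29 in the knockout. Its spread was the narrowest of these genes. Hoxa11, which acts with Hoxd11 in the forearm, ran from 1.72 through 2.53 to 3.50 in wild type and from 1.98 through 2.45 to 2.96 in the knockout. The wild-type arrays of Hoxa11 scattered more widely than the knockout arrays, with SDs of 0.65 and 0.25. Hoxa13, which acts with Hoxd13 in the hand, ran from 0.72 through 2.56 to 2.81 in wild type and from 1.53 through 2.59 to 2.98 in the knockout. As in HoxD, its lowest values were wild type 1 and knockout 12, and both Hoxa13 probes were high, with wild-type means of 2.32 and 1.93. The reference signal was well above background on only 2 of 22 arrays (1 of wild type) for the brighter probe and on 1 for the other, so the size of these ratios was not measured on most arrays. Hoxa9 ran from 0.96 through 1.66 to 2.14 in wild type and from 0.93 through 1.49 to 2.10 in the knockout. The groups overlapped for each of these genes.

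With the main values no HoxB or HoxC gene of groups 9 to 13 was 2-fold above the reference. Within HoxC, Hoxc10 and Hoxc12 stood at 0.55 and 0.65, above Hoxc9 at -1.28, while Hoxc13 stood at -0.35. The median wild-type log2 ratio over the 4 HoxA genes of groups 9 to 13 was 2.43, against 0.05 over the 7 of groups 1 to 8. Over the 5 HoxD genes of groups 9 to 13 it was 1.91, while Hoxd4 and Hoxd8 stood at 0.62 and -0.48. Over the HoxC genes it was 0.10 in groups 9 to 13 and -0.12 in groups 4 to 8, and the 2 HoxB genes of groups 9 to 13 stood at -0.56 and -1.02. These medians describe different probes and carry no test. The knockout arrays gave the same order of clusters, with medians of 0.24 for HoxA, -0.80 for HoxB, -0.13 for HoxC and 1.07 for HoxD beside 0.42, -0.66, -0.12 and 1.02 in wild type.

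Hoxc6, a gene of the thoracic body region, was the lowest. It ran from -2.63 through a median of -2.25 to -1.73 in wild type and from -2.80 through -2.40 to -1.84 in the knockout, so the reference held 4.70-fold more. All 22 arrays lay below the reference. Hoxc9, another thoracic gene, ran from -1.73 through -1.27 to -0.86 in wild type and from -1.76 through -1.21 to -0.90 in the knockout. Hoxb6 ran from -1.58 through -1.19 to -0.76 in wild type and from -1.62 through -1.34 to -0.91 in the knockout. The other Hoxb6 probe gave 0.21 ± 1.02 (SD, n = 9), so the call below the reference holds for 1 of its 2 probes. Hoxb13, a gene of the tail end of the body, ran from -1.30 through -1.11 to -0.25 in wild type and from -1.36 through -1.17 to -0.69 in the knockout. Its forelimb signal was above background on 4 of 22 arrays only, while the reference signal was above it on all 22. The arrays of both genotypes overlapped in each of these genes.

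The HoxB genes of the middle groups stood moderately below the reference. Hoxb5, whose known role in the limb field is to position the forelimb along the body, ran from -1.03 through -0.77 to -0.22 in wild type and from -1.20 through -0.92 to -0.65 in the knockout. Hoxb7 ran from -1.28 through -0.68 to -0.05 and from -1.22 through -0.87 to -0.61. Hoxb4 ran from -0.88 through -0.72 to -0.17 and from -0.97 through -0.78 to -0.32. All wild-type arrays of these genes lay below 0, as did those of Hoxb9, which ran from -0.87 through -0.47 to -0.25 in wild type and from -0.96 through -0.52 to -0.31 in the knockout. The second Hoxb9 probe lay lower, at -1.12 ± 0.50 (SD, n = 9). Hoxb2, a hindbrain gene, stood at -0.45 ± 0.16 (SD, n = 9), and its other probe, whose coordinates run on the minus strand while those of the other HoxB probes run on the plus strand, at -0.03 ± 0.24 (SD, n = 9). Hoxb3 was the exception in its cluster at 0.96 ± 0.39 (SD, n = 9), but its 2 probes disagreed in direction, with -0.63 ± 0.30 (SD, n = 9) for the other. For the higher probe the files also list a Hoxd3 transcript.

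The tested genes of groups 1 to 8 in HoxA, HoxC and HoxD had means within 2-fold of the reference, apart from Hoxc6. For Hoxc8 the ratio is a bound only, since no array had forelimb signal well above background, and the scanner ratio put it at -2.62. Hoxa2, Hoxa3 and Hoxa4 had wild-type means of 0.05, 0.54 and -0.05, and Hoxa5, Hoxa6 and Hoxa7 of -0.11, 0.27 and 0.42. Hoxc4 stood at 0.37 and Hoxd4 at 0.62 ± 0.70 (SD, n = 9), the widest wild-type spread among the brightest probes of the Hox genes. Hoxd8 stood at -0.48. Of the 5' HoxC genes, Hoxc10, a hindlimb and lumbar gene, stood at 0.55 ± 0.36 (SD, n = 9), Hoxc12 at 0.65 ± 0.46 (SD, n = 9) and Hoxc13, a gene of hair and nails, at -0.35 ± 0.16 (SD, n = 9). None of these passed the 2-fold line with the main values. With the scanner ratio Hoxa3 (1.04), Hoxc12 (1.43) and Hoxc13 (-1.29) did.

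A few genes were near the limit of detection. Hoxb1, a hindbrain gene measured by 10 spots, was not well above background in either channel on any array. Hoxc8 was not well above background in the forelimb on any of 22 arrays and was in the reference on 21, which puts the reference at least 1.24-fold higher. Hoxc5 was above background in the forelimb on 19 arrays and ran from -0.02 through 0.08 to 0.25 in wild type and from -0.01 through 0.06 to 0.24 in the knockout. Hoxc13, above it on 18, ran from -0.55 through -0.36 to -0.06 and from -0.55 through -0.38 to -0.10. Hoxc13 stayed below 0 on every array, and Hoxc5 near it. Hoxd3 was above background on 7 arrays, 1 of wild type and 6 of knockout, and ran from -0.08 through 0.01 to 0.34 and from -0.06 through 0.16 to 0.38. Hoxb8 was above it on 3 wild-type arrays and 1 knockout array and ran from -0.18 through -0.04 to 0.61 and from -0.31 through -0.13 to -0.01. Hoxd1, above it on 2 arrays of each genotype, ran from 0.03 through 0.28 to 0.39 and from -0.02 through 0.17 to 0.32. No array had a reference signal well above background for the brightest probes of these 3 genes, and 1 array had one for the other Hoxb8 probe. They were not tested.

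The sequences around the start sites were read for the Hox genes for which RefSeq lists a promoter. No Hox gene called 2-fold below the reference is among these. The table (GRCm38.p6) matched 22 of the 38 genes with 24 start sites, and the 2 highest and 2 lowest tested genes among them are printed, 250 bases before to 50 after the start, with CpG dinucleotides in capitals. The windows are chr2:74667975-74668274 for Hoxd13, chr2:74691641-74691940 for Hoxd10, chr11:96318017-96318316 for Hoxb4 and chr2:74704365-74704664 for Hoxd8, all on the plus strand.
Hoxd13: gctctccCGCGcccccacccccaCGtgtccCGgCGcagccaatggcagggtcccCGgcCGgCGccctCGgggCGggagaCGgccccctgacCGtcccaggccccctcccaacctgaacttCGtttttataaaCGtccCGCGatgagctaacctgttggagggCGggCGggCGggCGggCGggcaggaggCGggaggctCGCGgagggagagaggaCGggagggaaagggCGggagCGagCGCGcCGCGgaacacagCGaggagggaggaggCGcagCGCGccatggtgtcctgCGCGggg
Hoxd10: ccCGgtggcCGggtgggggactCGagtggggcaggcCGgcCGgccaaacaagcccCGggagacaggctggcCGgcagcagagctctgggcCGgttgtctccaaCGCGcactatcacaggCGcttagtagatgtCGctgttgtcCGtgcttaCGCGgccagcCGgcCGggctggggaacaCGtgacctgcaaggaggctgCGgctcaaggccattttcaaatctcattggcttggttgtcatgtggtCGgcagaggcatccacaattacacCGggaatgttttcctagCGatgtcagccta
Hoxb4: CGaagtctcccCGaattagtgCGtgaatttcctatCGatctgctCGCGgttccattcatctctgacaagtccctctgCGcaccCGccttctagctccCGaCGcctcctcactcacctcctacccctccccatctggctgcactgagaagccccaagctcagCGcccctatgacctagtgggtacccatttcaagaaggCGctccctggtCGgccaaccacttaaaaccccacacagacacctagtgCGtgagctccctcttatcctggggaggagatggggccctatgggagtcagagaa
Hoxd8: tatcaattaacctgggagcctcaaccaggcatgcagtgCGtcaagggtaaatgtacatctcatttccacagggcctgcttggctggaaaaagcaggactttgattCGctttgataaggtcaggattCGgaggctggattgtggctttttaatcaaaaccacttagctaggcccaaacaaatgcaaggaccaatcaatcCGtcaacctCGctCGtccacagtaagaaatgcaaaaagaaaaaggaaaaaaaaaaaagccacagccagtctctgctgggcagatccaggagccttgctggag
Hoxd13 held 37 CpG dinucleotides and Hoxd10 22, while Hoxb4 held 14 and Hoxd8 6. The median was 14.5 over the 24 Hox windows and 7 over all 32851 windows of this length. CpG count did not follow the ratio in every gene: the window of Hoxa9, which was at least 2-fold above the reference, held 4. Those of Hoxa5 and Hoxa6, within 2-fold of the reference, held 29 and 26. TATAAA, searched on both strands, was in the Hoxd13 window and in none of the other 3, and in 13.6% of all windows. GGGCGG, the core of a GC box, was found 7 times in the Hoxd13 window, not in the other 3, and in 35.7% of all windows. These matches describe the letters only.

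No Hox gene was called between knockout and wild type. Hoxb1, Hoxb8, Hoxb13, Hoxc8, Hoxd1 and Hoxd3 were too dim in the forelimb to test. Of 32 Hox genes with forelimb signal above background on at least 9 arrays, 0 passed an adjusted p of 0.05 (limma over 18630 genes, where 0.0215% passed), and the smallest adjusted p of a Hox gene was 0.918. At an unadjusted p under 0.05 there was 1 Hox gene of 32, against 5.33% of all genes. In sign, 15 Hox genes were higher and 17 lower in the knockout, with a median log2 difference of -0.03 beside -0.01 for all genes. When arrays were centred on their medians and loess was left out, the median over all genes was 0.24 and the split was 22 higher and 10 lower, or 14 and 18 relative to that median. The fitted differences ran from -0.28 (Hoxc12) to 0.25 (Hoxd13). The difference of Hoxd13 was 0.07 without wild type 1, 0.33 without knockout 12 and 0.15 without both. For 28 of the 32 the whole 95% interval lay within a 1.5-fold change either way, a smaller share than the 96.6% of all genes. The others were Hoxa13, Hoxc12, Hoxd4 and Hoxd13. The widest interval was that of Hoxd4, from -0.69 to 0.20. These intervals hold for the main correction only. With the deposited scanner ratio the differences were 0.39 in Hoxa5, 0.39 in Hoxa2 and -0.38 in Hoxd11, against 0.15, 0.17 and 0.17. That of Hoxd13 was -0.08 with the scanner ratio.

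**Figure D2:**
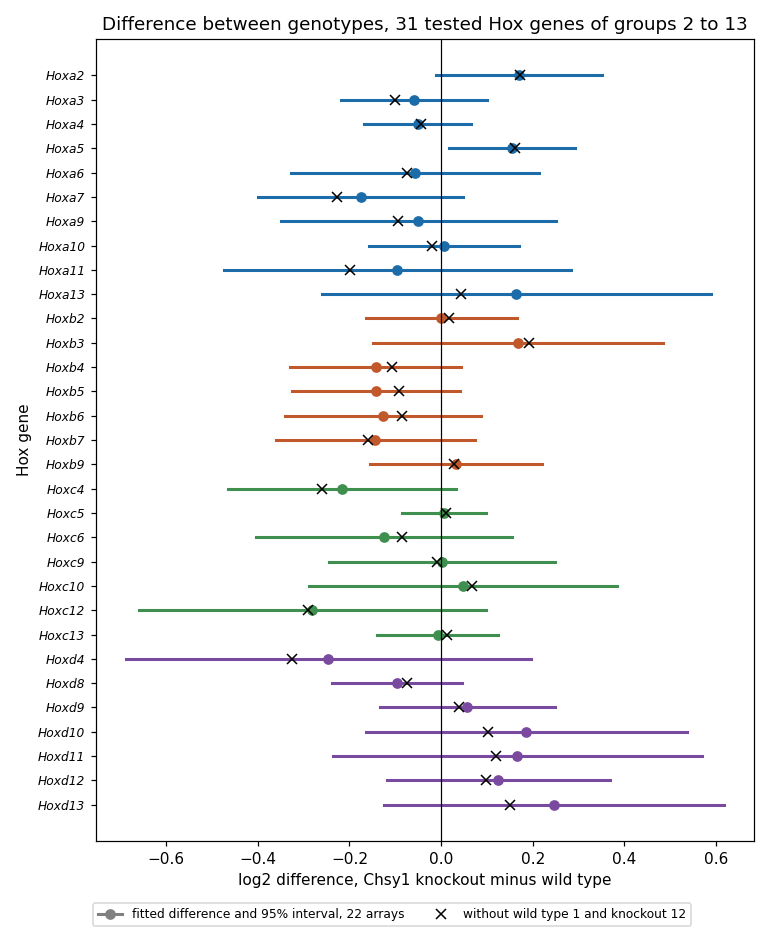
Fitted log2 difference, knockout minus wild type (horizontal axis), with its 95% interval for each of 31 tested Hox genes of groups 2 to 13 (vertical axis, coloured by cluster); crosses are the differences without wild type 1 and knockout 12. Every interval but that of Hoxa5 includes 0, and the 5 HoxD genes at the bottom lie to the right while most genes of groups 2 to 8 lie to the left.

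The gene with the smallest p was Hoxa5, which has known roles in the shoulder girdle and lung. It ran from -0.35 through a median of -0.10 to 0.31 in wild type and from -0.15 through 0.03 to 0.20 in the knockout. The highest wild-type array lay above every knockout array, yet 12 of 13 knockout arrays lay above the wild-type median. The log2 difference was 0.15 ± 0.07 (SE; 95% interval 0.02 to 0.29; limma adjusted p = 0.918). Within slide position 2, the only position with both genotypes (3 arrays of each), the difference was -0.02. Hoxa2, a gene of the hindbrain and second branchial arch, ran from -0.39 through 0.06 to 0.46 in wild type and from -0.14 through 0.21 to 0.49 in the knockout, and its difference of 0.17 was -0.02 in position 2. Both genes overlapped between genotypes. Within that position their small differences had the other sign, but lay close to the median of all genes there, -0.02.

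Of the other genes with the smallest p, 5 are given here, and all 5 had lower values in the knockout without passing the test. Hoxc4 ran from -0.03 through 0.31 to 1.21 in wild type and from -0.01 through 0.14 to 0.45 in the knockout, a difference of -0.22 ± 0.12 (SE; limma adjusted p = 0.918). Hoxa7 ran from -0.01 through 0.44 to 0.85 and from -0.19 through 0.34 to 0.56, a difference of -0.17. Both overlapped between genotypes over most of their range. Hoxb5 and Hoxb4, given above, each differed by -0.14. Hoxc12 ran from 0.17 through 0.47 to 1.46 and from -0.19 through 0.30 to 1.12, a difference of -0.28 with a 95% interval from -0.66 to 0.10. In position 2 the differences of Hoxb4, Hoxb5 and Hoxc12 had the other sign, at 0.05, 0.0027 and 0.13, and those of Hoxc4 and Hoxa7 were -0.21 and -0.05.

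The sign of the difference was split along the clusters, with no gene past the test. Of 18 genes of groups 1 to 8, 13 were lower and 5 higher in the knockout (median -0.11), and 10 of 14 genes of groups 9 to 13 were higher (median 0.04), but 7 were without wild type 5 or without knockout 1 and 4 without wild type 1 and knockout 1. With median centring the split in groups 1 to 8 was 8 lower and 10 higher, or 14 and 4 relative to the median of all genes. All 4 genes of group 4, Hoxa4, Hoxb4, Hoxc4 and Hoxd4, were lower (median -0.18), and they were so under each scaling tried, but Hoxb4 was higher within slide position 2. All 5 HoxD genes of groups 9 to 13 were higher: Hoxd13 by 0.25, Hoxd10 by 0.19, Hoxd11 by 0.17, Hoxd12 by 0.12 and Hoxd9 by 0.06, though 4 were higher with no background correction and 3 with the scanner ratio. Without wild type 1 the HoxD median fell from 0.17 to 0.02. Without both wild type 1 and knockout 12 the HoxD median was 0.10, with all 5 genes higher. Within position 2 it was -0.02, beside -0.03 for groups 1 to 8 and -0.02 for all genes. Position 1 held only wild-type arrays and positions 3 and 4 only knockouts, so outside position 2 the genotype and the position cannot be told apart.

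**Figure D3:**
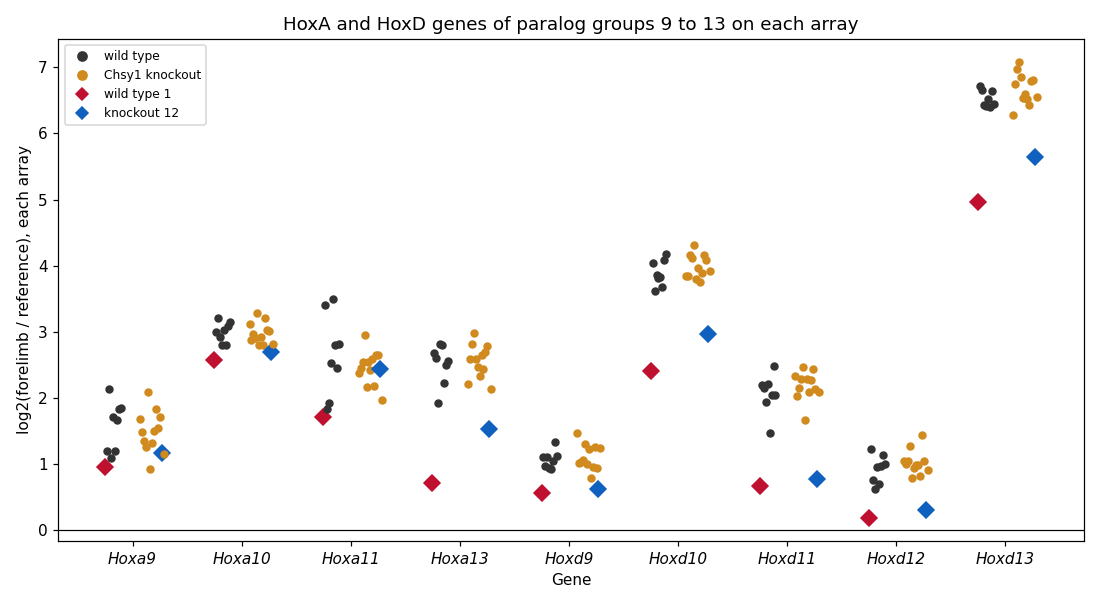
Log2 ratio of forelimb to reference on each array (vertical axis) for HoxA and HoxD genes of groups 9 to 13 (horizontal axis), dark points wild type and orange points knockout; diamonds mark wild type 1 and knockout 12. The genotypes overlap in every gene, and in Hoxd13 the diamonds lie at 4.96 and 5.64 while the other wild-type arrays lie from 6.40 to 6.72.

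Wild type 1 and knockout 12 were low in the 5' genes of HoxA and HoxD. For Hoxa10, Hoxa11, Hoxa13 and Hoxd10 to Hoxd13, wild type 1 was the lowest wild-type array in 7 of 7 genes and knockout 12 the lowest knockout in 6 of 7. Their median deviations from the gene means over these 7 genes were -1.35 and -0.86, while the other 20 arrays lay between -0.10 and 0.36. Genes other than Hox moved with them: the slope of an array's log2 ratios on the mean of the other arrays was 0.69 in wild type 1 and 0.87 in knockout 12, against 0.96 to 1.06 on the rest. Wild type 1 was thus nearer 0 in Hox genes of either sign, above the mean of the other arrays in 12 of 13 genes with a mean below the reference and below it in 19 of 19 genes with a mean above.

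These arrays stood apart with one background correction and not with the others. The main values used normexp, which fits the background of each channel as a normal distribution, and a fitted mean far below 0 raises the corrected signal of every spot. Its fitted background mean in Cy5 was -404 signal units in wild type 1 and -30.9 in knockout 12, and in Cy3 -152 and -110, while on the other 20 arrays it lay between -14.3 and -7.00 in Cy5 and between -6.59 and 1.68 in Cy3. With no background correction the median deviations of the 7 genes were -0.03 in wild type 1 and -0.06 in knockout 12 (other arrays -0.29 to 0.30), and the slopes were 0.99 and 1.01. With the deposited scanner ratio they were 0.04 and -0.06, with slopes of 1.03 and 1.02. Hoxd13 in wild type 1 stood at 6.75 without correction, inside the 6.47 to 6.84 of the other wild-type arrays.

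**Figure D4:**
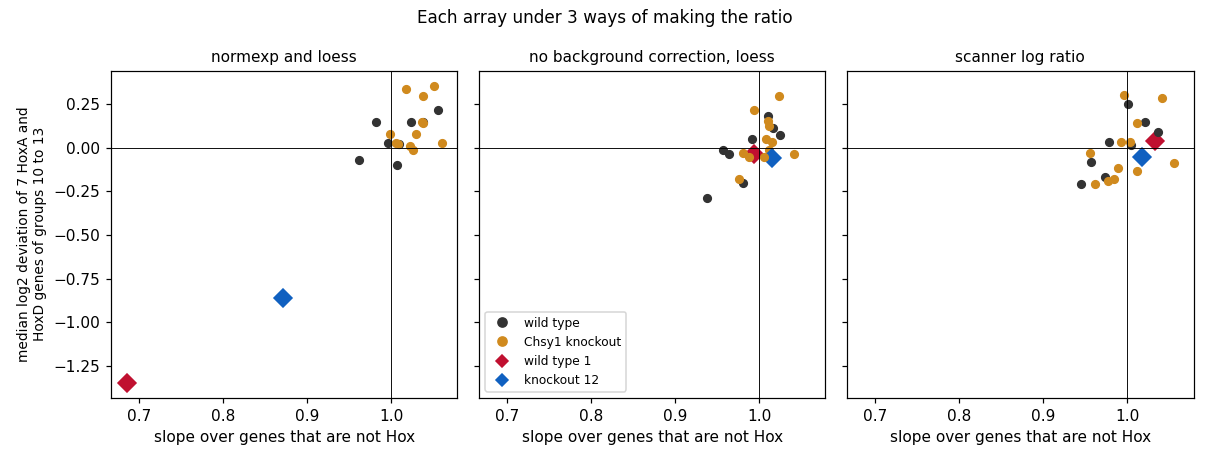
Median log2 deviation of 7 HoxA and HoxD genes of groups 10 to 13 (vertical axis) against the slope over genes that are not Hox (horizontal axis), 1 point per array, under 3 ways of making the ratio. Wild type 1 and knockout 12 lie far from the rest with normexp, at slopes of 0.69 and 0.87, and among the rest with no background correction and with the scanner ratio.

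The difference between genotypes in these 7 genes also changed with the correction. Their median log2 difference was 0.16 with normexp, with 6 of 7 genes higher in the knockout. It was 0.07 with no background correction and -0.01 with the scanner ratio, which had 3 of 7 higher. The levels against the reference kept their order of clusters under each correction. The scanner ratio gave larger sizes: 10.15 for Hoxd13, 6.19 for Hoxd10, 5.37 for Hoxd11, 5.21 for Hoxa13 and 3.00 for Hoxd12. It rests on subtracted reference signals that were mostly not above background in Hoxd13, Hoxd11, Hoxa13 and Hoxd12. The size of these ratios thus depended on the correction.

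Hox genes varied more between arrays than most genes did. The median SD over the 9 wild-type arrays was 0.31 for the 32 tested Hox genes and 0.21 for all 18630 genes, and 0.25 and 0.19 without wild type 1. In the knockout the medians were 0.22 and 0.17. These are descriptions with no test, since genes of one cluster share their arrays and tissue.

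Proteins that work with Hox factors were compared in the same fit. The cofactors of the TALE homeodomain class bind DNA with Hox proteins: of 9 tested, among them Meis1 to Meis3, Pknox1 and Pknox2, 0 were called, 6 were higher and 3 lower in the knockout, with a median log2 difference of 0.07. Pknox2 had the smallest p, with a difference of 0.20 (limma adjusted p = 0.924). Regulators of Hox clusters, among them Polycomb and Trithorax proteins, gave 0 called of 23 tested of 26, with 17 higher, 6 lower and a median of 0.03. Suz12, a Polycomb repressive complex member, differed by 0.17 and Bmi1, a Polycomb protein, by 0.12, both with a limma adjusted p of 0.918. Cdx1, Cdx2 and Cdx4, direct activators of Hox genes in the trunk, were not bright enough to test.

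Limb genes reported downstream of or acting with Hox proteins gave 0 called of 12 tested of 13, with 8 higher and 4 lower (median 0.08, and -0.09 without wild type 1). Gli3, a mediator of hedgehog signalling, differed by 0.14 and Aldh1a2, which makes retinoic acid, by -0.13. Shh itself was not bright enough to test. Genes beside the clusters, which share their chromosomal surroundings, gave 0 called of 16 tested of 17, with 9 higher, 7 lower and a median of 0.01. Skap1, next to HoxB, differed by -0.23 and Calcoco2 by -0.10. Of all genes tested, 46.6% were higher in the knockout and the median was -0.01.

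Markers of other tissues were read beside the Hox genes. The 4 limb genes read were Tbx5, Prrx1, Prrx2 and Msx1. Their summed linear ratio ran from 11.9 to 25.1 over wild-type and from 13.4 to 24.0 over knockout arrays. That of 3 hindlimb markers, of which Pitx1 had the highest ratio, ran from 37.3 to 69.9 and from 43.6 to 59.3. None of the markers was called between genotypes. Wild type 1 had the lowest wild-type sum for the hindlimb, cartilage, skeletal muscle, endothelium, erythroid, macrophage and nerve markers. It did not for the 4 limb genes, the surface ectoderm markers, or the liver and trunk markers. Knockout 12 had the lowest knockout sum for every marker group but hindlimb and surface ectoderm. The ranges overlapped in each marker group. Of the liver and trunk markers, Ttr was above background on 0 and Apoa1 on 2 of 22 arrays. Afp ran higher in wild type 1, at 0.94, than on any other array, where it lay between -3.45 and -0.32. Alb, the other tested marker of that list, stood at 0.57 in wild type 1, inside the 0.21 to 1.56 of the other arrays, and Ttr and Apoa1 also lay inside their ranges there. The part of admixed tissue in the Hox values was not tested.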

How the data were processed

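Forelimb RNA (Cy5) and a universal reference RNA (Cy3) shared each array, per the labels' protocols. The scanner software was Agilent Feature Extraction, given as 9.5 in the submitters' processing notes and as 9.5.3.1 in the headers. Per the file headers, spot and background brightness are deposited as raw intensities. The deposited scanner ratio is a log10 of Cy5 over Cy3 after that software's background subtraction and dye normalisation, and the authors' value table held the same log10 ratios (largest difference 0, median 0 on each array).

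Mean intensities were corrected with normexp (offset 50) against background medians and normalised by loess within arrays in limma 3.58.1 (R 4.3.3). Control and outlier spots were left out. A gene was read from its brightest probe. It was tested between genotypes where 9 or more arrays had Cy5 well above background, and against the reference where either channel met this. Fits used lmFit and eBayes on 22 arrays without covariates, with Benjamini-Hochberg adjustment over all genes tested, a threshold of 0.05 and 95% intervals. The fit was tested on simulated data. The number of arrays limits the precision. Probe coordinates are on mm8, and no annotation of that build was used. The members, lists and settings were chosen with earlier results of these data known. Array values were printed for the 8 highest and 8 lowest ratios, the 8 smallest p between genotypes and genes bright on only some arrays, and of other lists the called members or the 2 with the smallest p. Results for 2 genes these rules named are not reported here; counts and medians over a group include them.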

Additional observations from a re-analysis of the deposited data

Results flagged for a closer look

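Dixon's test at the 95% level was run on the 9 wild-type arrays for each of 34 Hox genes, and 6 genes had an array far from the others. Chance alone gives about 1 in 20. In 5 of the 6 it was wild type 1: its log2 ratios were 4.96 in Hoxd13, 2.41 in Hoxd10, 0.72 in Hoxa13, -0.25 in Hoxb13 and -0.057 in Hoxc8, each nearer 0 than the other 8. In Hoxa5 it was wild type 9, at 0.31. With no background correction 2 of 34 genes had such an array, and with the scanner ratio also 2, in neither case wild type 1. The group of 13 knockout arrays was not tested this way.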

How the results depend on the processing

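A difference was called reversed only where the sign changed and both 95% intervals excluded 0, which no Hox difference did. No Hox gene was called under any of 16 other settings or on leaving out each of 22 arrays, with smallest adjusted p-values from 0.107 (median centring) upward. All genes called numbered 4, and 1 with the scanner ratio, median centring, the slide block, the position block or the replicate block, 0 in position 2 alone (6 arrays), 8 with array weights, 2 without wild type 1 and knockout 1, 1 without wild type 1 and knockout 12 (chosen after seeing the data), and 2 (without wild type 2, 5 or 6) to 6 (without wild type 8) on leaving out single arrays. The median Hox difference was 0.17 with median centring, or -0.07 relative to the median of all genes, 0.00 with the replicate block, and -0.04 to 0.00 on leaving out single arrays. The labels do not say whether replicate numbers pair the samples. Deviations of 9 same-numbered pairs correlated from -0.31 to 0.49, over 0.1 in 3 pairs, and 1 sample correlated best with its own number. Such correlations cannot exclude a pairing. Genes past 2-fold against the reference numbered 12, and 20 with the scanner ratio (12 above, 8 below), while 10 to 13 were past it on leaving out single wild-type arrays. The scanner ratio moved the medians of HoxA, HoxB, HoxC and HoxD to 0.68, -1.10, -0.38 and 3.00, those of groups 1 to 8 and 9 to 13 to -0.30 and 1.69, and those of HoxA and HoxD in groups 9 to 13 to 3.02 and 5.37. Median centring moved HoxA to 0.70 and HoxB to -0.39. Hoxb3 passed 2-fold under 4 of these settings, and Hoxd12 with no background correction and with the scanner ratio. Hoxa3, Hoxb4, Hoxb5, Hoxc8, Hoxc12 and Hoxc13 passed it with the scanner ratio alone. Near that line single arrays decided the call: Hoxb3 passed it without wild type 1 (1.01) or 6 (1.05), Hoxb13 did not without wild type 5 (-0.98), 7 (-0.98) or 8 (-0.99), and Hoxd9 did not without wild type 8 (0.98). With median centring Hoxb6, Hoxb13 and Hoxc9 no longer passed it, and with the mean of all probes Hoxb6 and Hoxd9 did not. Signal near background limits Hoxb1, Hoxb8, Hoxb13, Hoxc5, Hoxc8, Hoxd1 and Hoxd3 in both channels or in the forelimb.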
